A study of Mus musculus with 19 samples.

Results

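Of the 1609 genes with log2 ratios between sorted tumour cell populations, 32 form a set of collagens, other matrix proteins, matrix enzymes, their inhibitors and matrix-linked surface proteins, with 1 gene, Itgb3bp, that belongs to it by name only. They were taken by gene symbol alone: collagen, Lox, Mmp, Adam, fibulin, fibrillin, laminin, integrin and Timp names, and Dcn, Postn, Thy1, Lum, Sparc, Bgn and Pcolce. No fibrillin gene, Sparc or Pcolce had a ratio, so none is among the 32. The authors title the 1609 genes as differentially expressed. Shares over all genes therefore describe that selection, and matrix genes without a ratio are not covered. The tumours are mouse skin squamous cell carcinomas of strain C57BL/6, grown as allografts from 10000 cells injected into the dermis. Quiescent cells were sorted as CD71lo H2BGFPhi, double negative cells as CD71lo H2BGFPlo and proliferative cells as CD71hi H2BGFPlo, where CD71 is the transferrin receptor and H2BGFP is a histone label that dividing cells dilute. Each population gave 1 RNA library of 100000 sorted cells in each of 2 tumours, SCC1 and SCC2. ATAC-seq, which marks open chromatin, covered these populations and CD71hi H2BGFPhi cells of both tumours, and another tumour, SCC3, labelled Tgfbr2KO, but its peaks come as 1 list merged over libraries. Smad2/3 ChIP-seq used cultured SCC1 cells given 5 ng/mL TGFβ1 for 1 h, and input DNA of SCC1 and SCC2 cells treated in the same way gave copy number. An allograft also holds stromal cells of the host, and the labels name no gate other than CD71 and H2BGFP. The labels give neither the age and sex of the mice nor the strain of the host.

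Collagens are the main structural proteins of connective tissue. Fibrillar collagens form the cables of the dermis, collagen VI forms beaded filaments near cells, and collagen VII anchors the epidermal basement membrane. Fibroblasts make most of the dermal matrix, and keratinocytes make much of the basement membrane and several matrix metalloproteinases (MMPs), which cut matrix proteins. TIMP proteins inhibit MMPs, LOX-family enzymes cross-link collagen and elastin, and integrins hold cells to matrix.

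The question was how the matrix genes differ between slow-cycling and fast-cycling tumour cells. By sign alone, most matrix genes had more RNA in double negative cells, and most in quiescent cells, than in proliferative cells of both tumours. A log2 ratio of 1 or more in both tumours was rarer. In double negative cells 13 of 32 reached it, against 15.5% of the table, and in quiescent cells 5 of 32, against 11.3%. Which slow-cycling population stood highest depended on the tumour. In SCC1 the highest level was in double negative cells for 25 of the 32 genes, against 25.9% of all genes in the authors' deposited table. In SCC2 it was in quiescent cells for 22 of 32, against 28.5% of the table. Of the rest, 3 were highest in quiescent cells of SCC1 (21.4% of the table) and 4 in proliferative cells (52.8%), and in SCC2 8 were highest in double negative cells (20.3%) and 2 in proliferative cells (51.2%). In all, 21 of 32 genes were highest in double negative cells of SCC1 and in quiescent cells of SCC2, a pattern of 14% of all genes in the authors' deposited table. Only 7 of 32 had the same highest population in both tumours (Col7a1, Col8a1, Dcn, Fbln1, Itgb3bp, Lamb2 and Timp3), against 72.3% of all genes in the authors' deposited table. With 1 library per population and tumour no test was made, and 2 tumours cannot give a small p-value. Each sorted library is a bulk sample, so fewer cells of a type and less RNA per cell cannot be told apart.

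**Figure D1:**
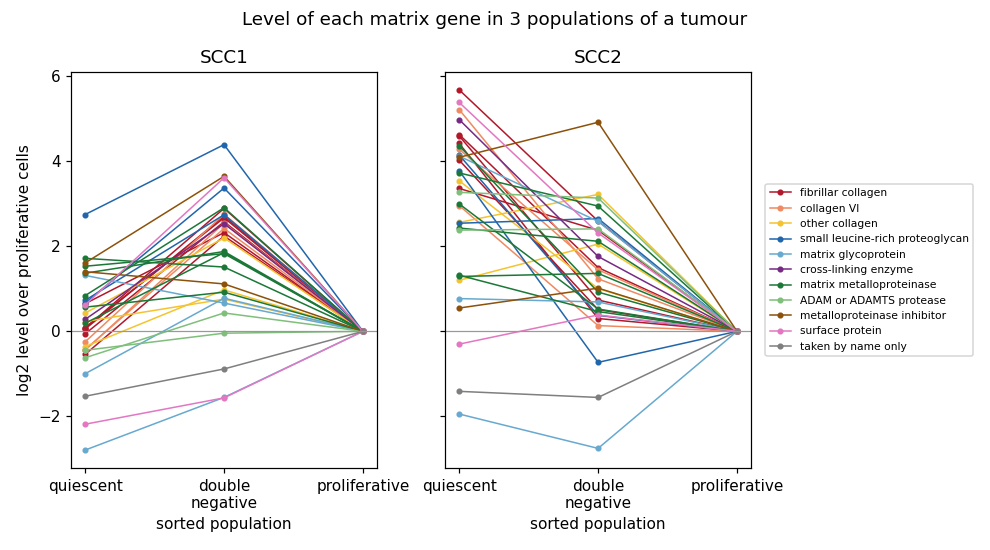
Log2 level of each of the 32 matrix genes relative to proliferative cells (set at 0) in quiescent, double negative and proliferative cells of SCC1 (left) and SCC2 (right), from the authors' deposited table. Each line is 1 gene, coloured by role; in SCC1 most lines peak at double negative cells and in SCC2 at quiescent cells.

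Set against proliferative cells, quiescent cells had higher levels of 20 of 32 matrix genes in both tumours, against 35.8% of all genes in the authors' deposited table. They had lower levels of 3 (Fbln1, Itga2 and Itgb3bp), against 52.3% of the table. The median log2 ratio, from the authors' deposited table, was 0.21 for SCC1 and 3.45 for SCC2 for matrix genes, and -0.61 for SCC1 and -0.49 for SCC2 for all genes. Log2 ratios of at least 1 in each tumour were found for 5, against 11.3% of the table: Dcn, Mmp11, Mmp12, Mmp13 and Timp3. In SCC2 alone 27 of 32 reached a log2 ratio of 1, against 29.8% of the table, and in SCC1 alone 7 did, against 19.7%. At any size, 20 were higher in SCC1 (38.3% of the table) and 29 were in SCC2 (45.1%), while 12 were lower in SCC1 (61.6%) and 3 were in SCC2 (54.6%). A log2 ratio of -1 or less in both tumours was found for 2, Fbln1 and Itgb3bp, against 23.3% of the table. Double negative cells had higher levels than proliferative cells for 27 of 32 in both tumours, against 42.6% of all genes in the authors' deposited table. Their median log2 ratio, from the authors' deposited table, was 2.22 for SCC1 and 1.30 for SCC2 for matrix genes, and -0.35 for SCC1 and -0.34 for SCC2 for all genes. A log2 ratio of 1 or more in both tumours was found for 13 of 32 in double negative cells, against 15.5% of the table, and in single tumours for 22 genes of SCC1 (24.1%) and 19 of SCC2 (25.6%). Lower in double negative cells of both tumours were 2, Fbln1 and Itgb3bp, against 50.9% of the table, and of these Fbln1 had a ratio of -1 or less in both, against 25.2%. At any size, 28 were higher in double negative cells of SCC1 (45.9%) and 29 in those of SCC2 (45.6%), while 4 were lower in SCC1 (53.9%) and 3 were in SCC2 (54.1%). These comparisons share the proliferative libraries.

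**Figure D2:**
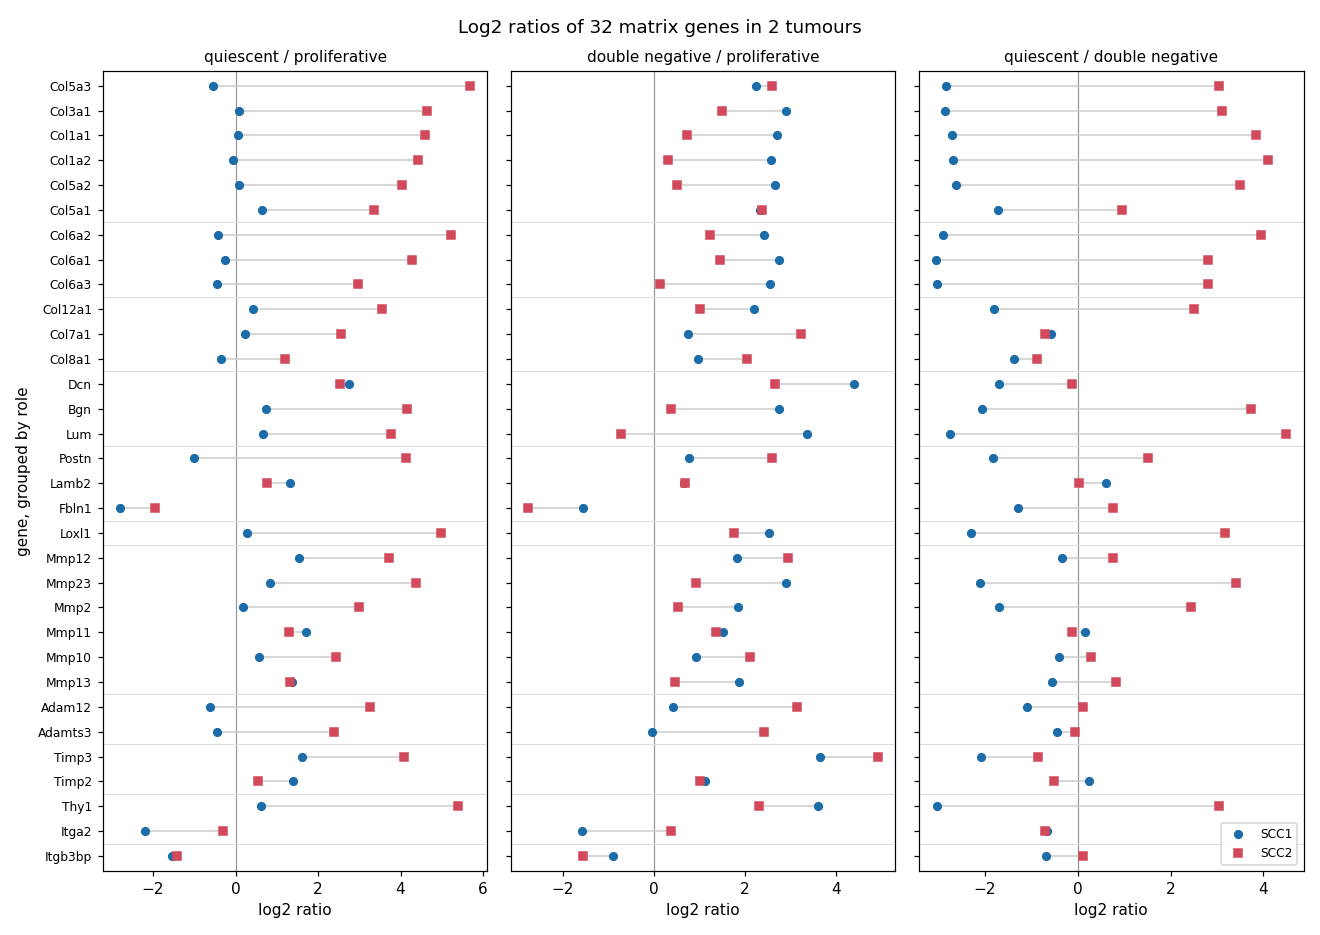
Log2 ratios of the 32 matrix genes in the authors' deposited table, for quiescent over proliferative (left), double negative over proliferative (middle) and quiescent over double negative cells (right). Circles are SCC1 and squares SCC2, a line joins the tumours of 1 gene, and most collagens lie near 0 on the axis in SCC1 and far to the right in SCC2 in the left panel.

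All 6 fibrillar collagen genes had a higher quiescent over proliferative ratio in SCC2 than in SCC1. Col1a1 and Col1a2 encode the chains of type I collagen, the main collagen of the dermis. Col1a1 had a quiescent over proliferative log2 ratio of 0.05 for SCC1 and 4.60 for SCC2 in the authors' deposited table, a ratio of 1.04 and of 24.2 on the linear scale. Its double negative over proliferative log2 ratio was 2.71 for SCC1 and 0.74 for SCC2 in the authors' deposited table. Col1a2 stood at -0.06 for SCC1 and 4.42 for SCC2 in quiescent cells, and at 2.58 for SCC1 and 0.30 for SCC2 in double negative cells, each as a log2 ratio over proliferative cells in the authors' deposited table. Type I collagen RNA was thus near the proliferative level in quiescent cells of SCC1. In double negative cells of SCC2 Col1a2 was near it, and Col1a1 had a linear ratio of 1.67. Both genes were higher in the other slow-cycling population of each tumour. Col3a1, the type III collagen of thin reticular fibres, had log2 ratios over proliferative cells of 0.08 for SCC1 and 4.63 for SCC2 in quiescent cells, and of 2.89 for SCC1 and 1.50 for SCC2 in double negative cells, in the authors' deposited table.

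Type V collagen nucleates type I fibrils, and its 3 genes differed among themselves. Col5a2 followed Col1a1, with log2 ratios of quiescent over proliferative cells of 0.09 for SCC1 and 4.03 for SCC2 in the authors' deposited table. Col5a3 had the highest quiescent ratio of all 32 genes in SCC2, 5.68, with -0.54 for SCC1, in the authors' deposited table. Col5a1 was the fibrillar gene with the smallest distance between tumours, at 0.65 for SCC1 and 3.36 for SCC2 in the authors' deposited table. In double negative cells Col5a1 (2.32 for SCC1, 2.38 for SCC2) and Col5a3 (2.24 for SCC1, 2.59 for SCC2) had nearly the same log2 ratio over proliferative cells in both tumours in the authors' deposited table, unlike Col5a2 (2.67 for SCC1, 0.51 for SCC2). Over the 6 genes the quiescent over proliferative ratio ranged over -0.54 to 0.65 for SCC1 and over 3.36 to 5.68 for SCC2 in the authors' deposited table. The median of all genes was -0.61 for SCC1 and -0.49 for SCC2. Each range rests on 1 library per population, so the 6 genes are not replicates of a tumour.

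The 3 chains of collagen VI followed type I. Col6a2 had log2 ratios over proliferative cells of -0.43 for SCC1 and 5.22 for SCC2 in quiescent cells, and of 2.42 for SCC1 and 1.24 for SCC2 in double negative cells, in the authors' deposited table. Quiescent cells stood at -0.25 for SCC1 and 4.28 for SCC2 for Col6a1, and at -0.44 for SCC1 and 2.96 for SCC2 for Col6a3, in the authors' deposited table. All 3 were lower in quiescent than in proliferative cells of SCC1 and higher in those of SCC2. Loxl1, which cross-links elastin, had quiescent over proliferative log2 ratios of 0.28 for SCC1 and 4.98 for SCC2, a linear ratio of 31.6 for SCC2, in the authors' deposited table. In double negative cells the log2 ratio over proliferative cells was 2.75 for SCC1 and 1.45 for SCC2 for Col6a1, 2.55 for SCC1 and 0.13 for SCC2 for Col6a3, and 2.53 for SCC1 and 1.76 for SCC2 for Loxl1, in the authors' deposited table. Double negative cells of SCC1 were thus above proliferative cells for all 4 genes. Col12a1, a collagen on the surface of type I fibrils, stood at 0.43 for SCC1 and 3.54 for SCC2 in quiescent cells and at 2.20 for SCC1 and 1.01 for SCC2 in double negative cells, over proliferative cells, in the authors' deposited table.

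Col7a1 and Col8a1 had another order of populations than the collagens above. Col7a1 encodes the anchoring fibril collagen, which keratinocytes as well as fibroblasts make. It had log2 ratios over proliferative cells of 0.23 for SCC1 and 2.56 for SCC2 in quiescent cells, and of 0.76 for SCC1 and 3.22 for SCC2 in double negative cells, in the authors' deposited table. Col8a1, a short-chain collagen of vessel walls and some basement membranes, stood at -0.36 for SCC1 and 1.20 for SCC2 in quiescent cells and at 0.97 for SCC1 and 2.05 for SCC2 in double negative cells, over proliferative cells, in the authors' deposited table. In both tumours the double negative cells were the highest and the quiescent cells came below them. Both genes had larger ratios over proliferative cells in SCC2 than in SCC1.

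The start windows of the collagens, 250 bases before to 50 after the gene start as RefSeq places it, were set against the merged ATAC peaks, since a window in a peak marks an open promoter in some library. A start sequence was matched for 23 of the 32 genes, and 9 collagens were among them. None of the 9 collagen genes had a window in a peak (exact 95% binomial interval 0 to 33.6%), against 78.5% of 1226 genes in the authors' deposited table. The windows shown are those of a type I and a type III gene, which had opposite quiescent over double negative ratios in the 2 tumours, and of Col7a1, whose window touches a Smad2/3 site. Capitals mark CAGAC or its reverse complement GTCTG, the core letters Smad proteins bind, TGANTCA, the AP-1 letters, and TATAAA.
Col1a2 (GRCm38.p6, chr6:4505368-4505667, plus strand): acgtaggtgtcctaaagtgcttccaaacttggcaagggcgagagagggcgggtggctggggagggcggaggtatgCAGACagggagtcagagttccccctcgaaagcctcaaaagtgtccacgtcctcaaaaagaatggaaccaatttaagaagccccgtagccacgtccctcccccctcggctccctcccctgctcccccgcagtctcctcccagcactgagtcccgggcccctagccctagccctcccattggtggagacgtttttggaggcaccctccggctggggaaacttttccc
Col3a1 (GRCm38.p6, chr1:45311288-45311587, plus strand): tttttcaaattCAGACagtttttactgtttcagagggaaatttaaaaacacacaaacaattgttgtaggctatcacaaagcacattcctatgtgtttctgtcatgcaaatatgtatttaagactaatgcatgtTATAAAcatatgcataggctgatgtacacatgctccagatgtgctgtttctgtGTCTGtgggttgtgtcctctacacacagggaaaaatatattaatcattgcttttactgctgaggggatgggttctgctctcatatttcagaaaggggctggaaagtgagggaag
Col7a1 (GRCm38.p6, chr9:108953336-108953635, plus strand): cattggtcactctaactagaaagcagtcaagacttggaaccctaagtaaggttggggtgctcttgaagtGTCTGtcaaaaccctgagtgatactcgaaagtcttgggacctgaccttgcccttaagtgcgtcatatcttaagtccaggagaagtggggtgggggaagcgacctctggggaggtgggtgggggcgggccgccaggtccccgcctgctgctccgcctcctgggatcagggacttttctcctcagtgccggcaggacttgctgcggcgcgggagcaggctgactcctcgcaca
The Col1a2 window holds 1 CAGAC at -175 and the Col7a1 window 1 GTCTG at -181, counted from the start. The Col3a1 window has CAGAC at -239, GTCTG at -64 and TATAAA at -117. The GC share was 61.0% for Col1a2, 58.7% for Col7a1 and 37.7% for Col3a1.

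The small leucine-rich proteoglycans Bgn, Dcn and Lum, which bind collagen fibrils and set their spacing, were not alike. Decorin, Dcn, had quiescent over proliferative log2 ratios of 2.75 for SCC1 and 2.54 for SCC2 in the authors' deposited table, a linear ratio of 6.72 and 5.83. Its double negative over proliferative log2 ratios were 4.39 for SCC1 and 2.65 for SCC2 in the authors' deposited table. Lumican, Lum, lies near Dcn on chromosome 10 (Dcn chr10:97479500-97518163, Lum chr10:97565501-97572703, GRCm38.p6). Its quiescent over proliferative log2 ratios were 0.66 for SCC1 and 3.78 for SCC2, and its double negative ones 3.37 for SCC1 and -0.73 for SCC2, in the authors' deposited table. Lum was the member with the largest distance between tumours in double negative over proliferative cells, 4.10 on the log2 scale, where the median distance was 1.32 for the 32 genes and 0.38 for all genes. Biglycan, Bgn, followed Lum, with quiescent ratios of 0.73 for SCC1 and 4.15 for SCC2 and double negative ratios of 2.74 for SCC1 and 0.37 for SCC2 over proliferative cells in the authors' deposited table. Of the proteoglycans, Dcn alone had nearly the same quiescent ratio in both tumours.

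All 6 MMP genes had positive log2 ratios over proliferative cells in both slow-cycling populations of both tumours. Of all genes, 35.8% were higher in quiescent and 42.6% in double negative cells of both tumours, and the share with both was not counted. The lowest MMP ratio was 0.19, for Mmp2 in quiescent cells of SCC1. Mmp11, stromelysin-3, had quiescent ratios of 1.72 for SCC1 and 1.29 for SCC2 and double negative ratios of 1.51 for SCC1 and 1.36 for SCC2, in the authors' deposited table. Its quiescent over double negative log2 ratio was 0.17 for SCC1 and -0.11 for SCC2 in the authors' deposited table, so both slow-cycling populations had nearly the same level. Mmp2, a gelatinase made mostly by fibroblasts, had quiescent ratios of 0.19 for SCC1 and 3.00 for SCC2 and double negative ratios of 1.85 for SCC1 and 0.52 for SCC2, in the authors' deposited table. Mmp23, a membrane-bound family member, had quiescent ratios of 0.84 for SCC1 and 4.37 for SCC2 and double negative ratios of 2.91 for SCC1 and 0.92 for SCC2, in the authors' deposited table. Mmp2 and Mmp23 shared the population order of type I collagen in both tumours.

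Mmp10, Mmp12 and Mmp13 lie in the MMP cluster of chromosome 9 (Mmp13 chr9:7272514-7283333, Mmp12 chr9:7344397-7360461, Mmp10 chr9:7502342-7510242, GRCm38.p6). Mmp13 encodes collagenase-3, Mmp12 macrophage elastase and Mmp10 stromelysin-2. Mmp13 had quiescent over proliferative log2 ratios of 1.37 for SCC1 and 1.32 for SCC2, the smallest distance between tumours of the 32 genes, and double negative ratios of 1.88 for SCC1 and 0.46 for SCC2, in the authors' deposited table. Mmp12 stood at 1.53 for SCC1 and 3.73 for SCC2 in quiescent cells and at 1.83 for SCC1 and 2.95 for SCC2 in double negative cells, in the authors' deposited table. Mmp10 stood at 0.57 for SCC1 and 2.43 for SCC2 in quiescent cells and at 0.92 for SCC1 and 2.12 for SCC2 in double negative cells, over proliferative cells, in the authors' deposited table. All 3 were highest in double negative cells of SCC1 and in quiescent cells of SCC2.

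Each of the 3 cluster genes had a start window in a merged ATAC peak, while the windows of Mmp11 and Mmp23 had none. The windows of Mmp10 and Mmp13 are shown because each has an AP-1 motif just before a TATAAA, all in capitals with any CAGAC or GTCTG.
Mmp10 (GRCm38.p6, chr9:7502092-7502391, plus strand): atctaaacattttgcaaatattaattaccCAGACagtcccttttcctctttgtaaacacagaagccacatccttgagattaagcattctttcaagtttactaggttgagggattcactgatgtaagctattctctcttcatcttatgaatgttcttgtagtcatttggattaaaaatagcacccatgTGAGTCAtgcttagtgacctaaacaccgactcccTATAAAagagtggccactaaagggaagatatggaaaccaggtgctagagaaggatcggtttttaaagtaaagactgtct
Mmp13 (GRCm38.p6, chr9:7272264-7272563, plus strand): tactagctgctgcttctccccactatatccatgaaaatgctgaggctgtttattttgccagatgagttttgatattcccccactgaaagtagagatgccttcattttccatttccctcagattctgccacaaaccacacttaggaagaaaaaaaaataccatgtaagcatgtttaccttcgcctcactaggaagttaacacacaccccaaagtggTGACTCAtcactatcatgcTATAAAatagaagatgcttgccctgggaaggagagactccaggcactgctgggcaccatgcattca
Mmp10 has TGAGTCA at -63 and TATAAA at -29, and Mmp13 has TGACTCA at -35 and TATAAA at -16. TGANTCA was found on either strand in 4 of the 28 start windows of matrix genes (Mmp10, Mmp12, Mmp13 and Col6a1), against 7.81% of 32851 windows in all. CAGAC or GTCTG was in 18 of 28, against 49.6% of all windows, and TATAAA in 5 of 28, against 13.6%. Some genes have more than 1 window, and those of Fbln1 and of Mmp23 overlap each other, so these counts are not of separate sequences.

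The inhibitors Timp2 and Timp3 and the proteases Adam12 and Adamts3 differed in population order. Timp3, which is held in the matrix, had quiescent log2 ratios of 1.61 for SCC1 and 4.09 for SCC2 and double negative ratios of 3.65 for SCC1 and 4.92 for SCC2 over proliferative cells in the authors' deposited table. Its double negative linear ratio of 30.2 for SCC2 was the highest of the 32 genes in that tumour, and it was highest in double negative cells of both. Timp2, which also takes part in activating pro-MMP2, had quiescent ratios of 1.40 for SCC1 and 0.55 for SCC2 and double negative ratios of 1.12 for SCC1 and 1.02 for SCC2 in the authors' deposited table. Adam12, a membrane-anchored metalloprotease, had quiescent ratios of -0.62 for SCC1 and 3.27 for SCC2 and double negative ratios of 0.43 for SCC1 and 3.14 for SCC2 in the authors' deposited table. Adamts3, a procollagen N-propeptidase, had quiescent ratios of -0.45 for SCC1 and 2.38 for SCC2 and double negative ratios of -0.04 for SCC1 and 2.41 for SCC2 in the authors' deposited table. Adam12 and Adamts3 were near the proliferative level or below it in SCC1 and above it in both slow-cycling populations of SCC2.

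Fbln1 and Itga2 were lower in quiescent than in proliferative cells of both tumours. Fibulin-1, Fbln1, is a secreted glycoprotein of elastic fibres and basement membranes. It had quiescent over proliferative log2 ratios of -2.79 for SCC1 and -1.95 for SCC2, and double negative ratios of -1.55 for SCC1 and -2.75 for SCC2, in the authors' deposited table. Its quiescent linear ratio was 0.144 for SCC1 and 0.26 for SCC2, and all 4 log2 ratios over proliferative cells were at -1 or below. Itga2, the alpha chain of the collagen receptor α2β1, had quiescent ratios of -2.19 for SCC1 and -0.30 for SCC2 and double negative ratios of -1.57 for SCC1 and 0.38 for SCC2 in the authors' deposited table. Itga2 was therefore lowest in quiescent cells of both tumours, with the double negative cells on either side of the proliferative level. Itgb3bp, which the symbol rule takes by its name only, encodes a centromere protein and had ratios over proliferative cells of -1.53 and -1.41 in quiescent cells and of -0.89 and -1.56 in double negative cells of SCC1 and SCC2, in the authors' deposited table. It is counted with the 32, and without it the counts of genes lower over proliferative cells in both tumours were 2 for quiescent and 1 for double negative cells.

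The start windows of Fbln1 and Itga2, unlike those of the collagens, lay in merged ATAC peaks. They are shown for that contrast, with CAGAC and GTCTG in capitals.
Fbln1 (GRCm38.p6, chr15:85205699-85205998, plus strand): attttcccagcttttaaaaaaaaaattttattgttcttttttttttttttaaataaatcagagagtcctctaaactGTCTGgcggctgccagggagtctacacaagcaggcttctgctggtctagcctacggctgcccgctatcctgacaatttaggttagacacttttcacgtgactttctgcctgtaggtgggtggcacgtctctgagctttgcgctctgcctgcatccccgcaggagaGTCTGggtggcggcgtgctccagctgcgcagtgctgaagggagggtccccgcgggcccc
Itga2 (GRCm38.p6, chr13:114932051-114932350, minus strand): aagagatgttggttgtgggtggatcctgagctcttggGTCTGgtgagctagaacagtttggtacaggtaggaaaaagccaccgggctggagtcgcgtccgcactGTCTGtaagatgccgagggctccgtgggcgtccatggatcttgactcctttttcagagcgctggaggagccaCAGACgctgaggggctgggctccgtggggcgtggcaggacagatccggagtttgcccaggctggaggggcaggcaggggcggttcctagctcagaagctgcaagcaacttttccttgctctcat
The Fbln1 window has GTCTG at -174 and -9, and the Itga2 window has GTCTG at -213 and -146 and CAGAC at -74. Neither has TGANTCA or TATAAA. Fbln1 has another start close downstream, whose window lay in a peak too.

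Postn, Lamb2 and Thy1 complete the members. Periostin, Postn, a matricellular protein of remodelling tissue, had quiescent over proliferative log2 ratios of -0.997 for SCC1 and 4.12 for SCC2 and double negative ratios of 0.78 for SCC1 and 2.59 for SCC2, in the authors' deposited table. Lamb2, the laminin beta 2 chain, had quiescent ratios of 1.32 for SCC1 and 0.77 for SCC2 and double negative ratios of 0.66 for SCC1 and 0.69 for SCC2 in the authors' deposited table. Lamb2 alone of the 32 genes was highest in quiescent cells of both tumours. Thy1, a surface glycoprotein of fibroblasts and T cells, had quiescent ratios of 0.62 for SCC1 and 5.38 for SCC2 and double negative ratios of 3.61 for SCC1 and 2.31 for SCC2 in the authors' deposited table. Its linear quiescent ratio of 41.8 for SCC2 was exceeded among members only by Col5a3 with 51.3.

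The direct comparison of quiescent with double negative cells set both slow-cycling populations against each other. It adds no new measurement, since within each tumour its log2 ratio and that of double negative over proliferative cells add up to the quiescent over proliferative one to within 0.042 for every member. In the authors' deposited table, 16 of 32 matrix genes had a quiescent over double negative log2 ratio of -1 or less in SCC1 and of 1 or more in SCC2, against 8.58% of all genes. No member had the opposite arrangement, and no gene of the whole table did. The median of 9 myeloid markers was -1.77 for SCC1 and 2.30 for SCC2 in the authors' deposited table. Of the 9, H2-Ab1 alone was higher in quiescent cells of both tumours, at 0.15 for SCC1 and 0.51 for SCC2. Other cell types differed. The median of 3 endothelial markers was -4.00 for SCC1 and -0.79 for SCC2, and the fibroblast gene S100a4 stood at 0.36 for SCC1 and 0.86 for SCC2. The part of such cells in the matrix ratios was not tested. The median log2 ratio of matrix genes, from the authors' deposited table, was -1.76 for SCC1 and 1.24 for SCC2, and that of all genes was -0.23 for SCC1 and 0.13 for SCC2. Only 1 member, Lamb2, was higher in quiescent cells of both tumours, against 16.3% of the table, and 6 were lower in both (Adamts3, Col7a1, Col8a1, Dcn, Itga2 and Timp3), against 30% of the table. None of the 32 had a ratio of 1 or more in size with the same sign in both tumours, against 1.31% of the table higher and 2.3% lower. In SCC1 alone 22 had a ratio of -1 or less (19.2% of the table), and in SCC2 alone 16 had a ratio of 1 or more (18.3%). At any size, quiescent cells of SCC1 had more RNA of 3 genes (29% of the table) and less of 29 (70.9%), and quiescent cells of SCC2 had more of 24 (57.1%) and less of 8 (42.7%). The largest opposition was that of Lum, with -2.75 for SCC1 and 4.48 for SCC2 in the authors' deposited table. Col1a1 stood at -2.69 for SCC1 and 3.83 for SCC2, Col6a2 at -2.89 for SCC1 and 3.95 for SCC2 and Thy1 at -3.03 for SCC1 and 3.04 for SCC2 in the authors' deposited table. Among the enzymes, Loxl1 stood at -2.29 for SCC1 and 3.18 for SCC2, Mmp23 at -2.11 for SCC1 and 3.41 for SCC2 and Mmp2 at -1.70 for SCC1 and 2.44 for SCC2 in the authors' deposited table. Periostin had -1.82 for SCC1 and 1.52 for SCC2, and Fbln1 had -1.28 for SCC1 and 0.77 for SCC2, in the authors' deposited table. Timp3 stood at -2.08 for SCC1 and -0.85 for SCC2, Col8a1 at -1.37 for SCC1 and -0.88 for SCC2 and Col7a1 at -0.57 for SCC1 and -0.70 for SCC2 in the authors' deposited table, lower in quiescent cells of both tumours. Itga2 had the smallest distance between tumours, with -0.66 for SCC1 and -0.71 for SCC2 in the authors' deposited table. The median distance between tumours was 3.00 for the 32 genes and 0.68 for all genes.

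**Figure D3:**
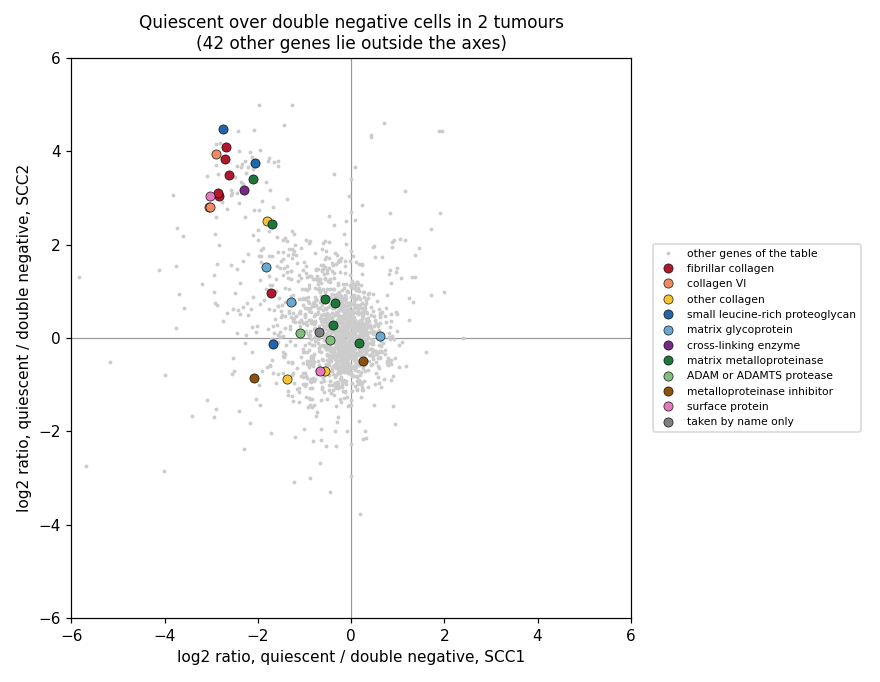
Log2 ratio of quiescent over double negative cells in SCC1 (x axis) against SCC2 (y axis) in the authors' deposited table, with matrix genes coloured by role and all other genes in grey, of which 42 lie outside the axes. Of the 32 matrix genes, 16 lie at -1 or less in SCC1 and at 1 or more in SCC2, at the upper left.

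Some neighbouring members of 1 locus were compared. Col3a1 (chr1:45311538-45349706) and Col5a2 (chr1:45374331-45503282, GRCm38.p6) stood at -2.85 and -2.62 for SCC1 and at 3.11 and 3.50 for SCC2 in quiescent over double negative cells in the authors' deposited table. Col6a1 (chr10:76708792-76726044) and Col6a2 (chr10:76595756-76623630) stood at -3.04 and -2.89 for SCC1 and at 2.80 and 3.95 for SCC2 for the same log2 ratio in the authors' deposited table. These pairs were alike within each tumour, whereas Dcn had -1.68 for SCC1 and -0.13 for SCC2 and its neighbour Lum -2.75 for SCC1 and 4.48 for SCC2 in the authors' deposited table. Lamb2 (0.61 for SCC1, 0.04 for SCC2) and Col7a1 (-0.57 for SCC1, -0.70 for SCC2), both on chromosome 9, differed too. Genes on different chromosomes were also alike, as Col1a1 (-2.69 for SCC1, 3.83 for SCC2) and Col1a2 (-2.68 for SCC1, 4.09 for SCC2).

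Other matrix genes, from a list of 72 that share no member with the 32, had a ratio in 18 cases. Of these 18, 14 were higher and 0 lower in quiescent than in proliferative cells of both tumours, against 35.8% and 52.3% of the table. Their medians were 1.13 for SCC1 and 1.80 for SCC2 in the authors' deposited table. In double negative cells 18 of 18 were higher in both tumours, against 42.6% of the table, with medians of 1.97 for SCC1 and 1.82 for SCC2. Quiescent over double negative cells, 0 were higher and 4 lower in both tumours, against 16.3% and 30% of the table. The medians of this comparison were -0.70 for SCC1 and -0.015 for SCC2 in the authors' deposited table. The basement membrane linker nidogen-1, Nid1, was at -0.0046 for SCC1 and 3.85 for SCC2 in quiescent cells and at 4.07 for SCC1 and 2.37 for SCC2 in double negative cells, over proliferative cells, in the authors' deposited table. The secreted Fstl1 had quiescent ratios of 0.25 for SCC1 and 3.56 for SCC2 in the authors' deposited table, the order of type I collagen. The matricellular gene Ctgf had quiescent ratios of 3.08 for SCC1 and 3.49 for SCC2, and fibronectin, Fn1, of 1.89 for SCC1 and 1.66 for SCC2, in the authors' deposited table, so both were above the proliferative level by similar amounts in both tumours. Matrix Gla protein, Mgp, had quiescent ratios of 2.15 for SCC1 and 1.74 for SCC2, and matrilin-2, Matn2, of 1.13 for SCC1 and 2.74 for SCC2, in the authors' deposited table. Of 24 collagen-processing genes 2 had a ratio, the procollagen protease Tll1 (quiescent 1.32 for SCC1, 2.59 for SCC2) and the prolyl 3-hydroxylase Lepre1 (0.42 for SCC1, 1.05 for SCC2) in the authors' deposited table, and both were higher in both slow-cycling populations. Of 28 other proteases and inhibitors 3 had a ratio, among them Serping1, the C1 inhibitor, with quiescent ratios of 0.12 for SCC1 and 4.59 for SCC2, and Serpinb2 with -1.39 for SCC1 and -0.49 for SCC2, in the authors' deposited table. Of 29 other cell-matrix receptor genes 4 had a ratio, among them the collagen receptor Ddr1 with quiescent ratios of 1.09 for SCC1 and 0.64 for SCC2, Fermt2 with 0.57 for SCC1 and 0.80 for SCC2, and the hyaluronan-binding mitotic gene Hmmr with -5.02 for SCC1 and -1.82 for SCC2, in the authors' deposited table.

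Markers of cell types that the gates could hold also differed between tumours. Of 28 myeloid markers 9 had a ratio: S100a8, S100a9, H2-Ab1, H2-Eb1, H2-Aa, Tyrobp, Cd14, Cd74 and Lyz2. Over proliferative cells of both tumours, quiescent cells had more RNA of 3 of them (35.8% of the table) and less of 0 (52.3%). Double negative cells had more of 8 (42.6%) and less of 0 (50.9%). The quiescent over proliferative medians of these markers were -0.23 for SCC1 and 3.11 for SCC2 in the authors' deposited table. Double negative over proliferative medians were 1.44 for SCC1 and 0.81 for SCC2. The quiescent over double negative median of the myeloid markers was -1.77 for SCC1 and 2.30 for SCC2 in the authors' deposited table. That of the matrix genes was -1.76 for SCC1 and 1.24 for SCC2. The fibroblast list had 4 of 25 with a ratio, and 3 of them (Lum, Col1a2 and Col5a1) are members, so it is no separate measure. No ratio was analysed here for the fibroblast receptors Pdgfra and Pdgfrb or the leukocyte gene Ptprc. S100a4, the other fibroblast gene with a ratio, had quiescent ratios of 0.98 for SCC1 and 0.41 for SCC2 and double negative ratios of 0.58 for SCC1 and -0.48 for SCC2 in the authors' deposited table. Its quiescent over double negative ratio was 0.36 for SCC1 and 0.86 for SCC2 in the authors' deposited table, the same sign in both tumours. Of 17 endothelial markers 3 had a ratio, with quiescent medians of -0.61 for SCC1 and 1.88 for SCC2 and double negative medians of 3.34 for SCC1 and 1.63 for SCC2 in the authors' deposited table. Their quiescent over double negative median was -4.00 for SCC1 and -0.79 for SCC2 in the authors' deposited table. Cldn5, an endothelial tight junction gene, had double negative ratios of 6.84 for SCC1 and 4.53 for SCC2, and Lyve1, of lymphatic endothelium, 7.15 for SCC1 and 4.24 for SCC2, in the authors' deposited table. The pericyte and muscle list had 1 of 16, Myl9, with quiescent ratios of 0.19 for SCC1 and 3.14 for SCC2 in the authors' deposited table, and the melanocyte and Schwann list had 0 of 12. Of 18 basal keratinocyte markers 1 had a ratio, the epithelial adhesion gene Epcam, with quiescent ratios of -3.21 for SCC1 and -0.40 for SCC2 and double negative ratios of -1.93 for SCC1 and -0.68 for SCC2 in the authors' deposited table. Of 22 suprabasal markers 5 had a ratio, with quiescent medians of -1.31 for SCC1 and 0.36 for SCC2 and quiescent over double negative medians of -0.29 for SCC1 and 0.27 for SCC2 in the authors' deposited table. In quiescent over double negative cells 1 of the 5 was higher in both tumours (16.3% of the table), 1 lower (30%) and 3 neither. Krt6b, among these 3, stood at -2.21 for SCC1 and 3.66 for SCC2. Its quiescent over proliferative ratios were -3.71 for SCC1 and 3.22 for SCC2 in the authors' deposited table. No other suprabasal marker had quiescent over double negative ratios of that size. Krt13 stood at -0.29 for SCC1 and 0.23 for SCC2, and Krtdap at -0.17 for SCC1 and 0.27 for SCC2. Krt16 stood at -0.30 for SCC1 and -0.08 for SCC2, and Sprr1b at 0.98 for SCC1 and 0.51 for SCC2. The lymphoid list had 1 of 17, Thy1, itself a member. The table gives no levels, so no summed level of these markers can be given. The part of other cell types in the matrix ratios was not tested. Tfrc, the CD71 gene used in the sort, stood at -1.72 for SCC1 and -1.55 for SCC2 in quiescent cells and at -1.63 for SCC1 and -2.02 for SCC2 in double negative cells in the authors' deposited table, in the direction of the sort. The proliferation gene Mki67 had quiescent ratios of -5.90 for SCC1 and -2.28 for SCC2 and double negative ratios of -4.40 for SCC1 and -3.15 for SCC2 in the authors' deposited table.

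Open chromatin at the matrix genes was described from the merged peak list, which cannot be split by population. A start window lay in a peak for 8 of 23 matrix genes, or 34.8% (exact 95% binomial interval 16.4 to 57.3), against 78.5% of 1226 genes in the authors' deposited table. The 8 were Adamts3, Fbln1, Itga2, Itgb3bp, Mmp10, Mmp12, Mmp13 and Timp2. Windows widened by 1000 bases either side lay in a peak for 10 of 23, against 82.4% of 1226 genes, a width chosen after the data were seen. The table holds the genes its authors chose, so its share is a background for this table only. Within the gene and 10 kb either side, 26 of 32 matrix genes had a peak, against 93.9% of the table. Bgn, Col5a2, Col6a1, Col6a2, Loxl1 and Mmp23 had none in that window. The number of peaks went up to 13 for Adam12, 12 for Adamts3 and 11 for Col8a1, which are long genes of 341899, 209828 and 130482 bases.

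Smad2/3 sites were set against the genes because several matrix genes are known TGF-β targets. The authors title these sites as bound with a motif. A gene without a listed site is therefore not shown to be unbound, and the shares are not of all Smad2/3 binding. A site lay in the gene or within 10 kb for 9 of 32 matrix genes, or 28.1% (exact 95% binomial interval 13.7 to 46.7), against 21.4% of 1600 matched genes in the authors' deposited table. That interval treats the genes as separate draws, but some are neighbours and their lengths differ, so it cannot decide whether the shares differ. The 9 genes held 19 sites, 4 each at Adam12 and Fbln1, 3 at Col7a1, 2 each at Itga2 and Timp2, and 1 each at Col1a1, Col6a1, Col8a1 and Itgb3bp. Of these 19 sites, 9 lay in a merged ATAC peak. None of the 3 Col7a1 sites did, and 1 of them (chr9:108953145-108953345, mm10) reaches into the Col7a1 start window. A Smad2/3 site overlapped a start window for 2 of 23 matrix genes, Col7a1 and Itgb3bp, against 3.18% of 1226 genes in the authors' deposited table. The Col1a1 site (chr11:94958137-94958337) lay outside the gene body and in a peak. Of the 4 Fbln1 sites, all in the gene body, 1 (chr15:85233683-85233883) lay in a peak. The Itga2 site at chr13:114933604-114933804 lay just outside the gene body, in a peak, and the Itgb3bp site (chr4:99829238-99829438) lay at its start window, in a peak. Exon and intron positions were not used here. The sites were mapped in cultured SCC1 cells, not in the sorted populations.

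**Figure D4:**
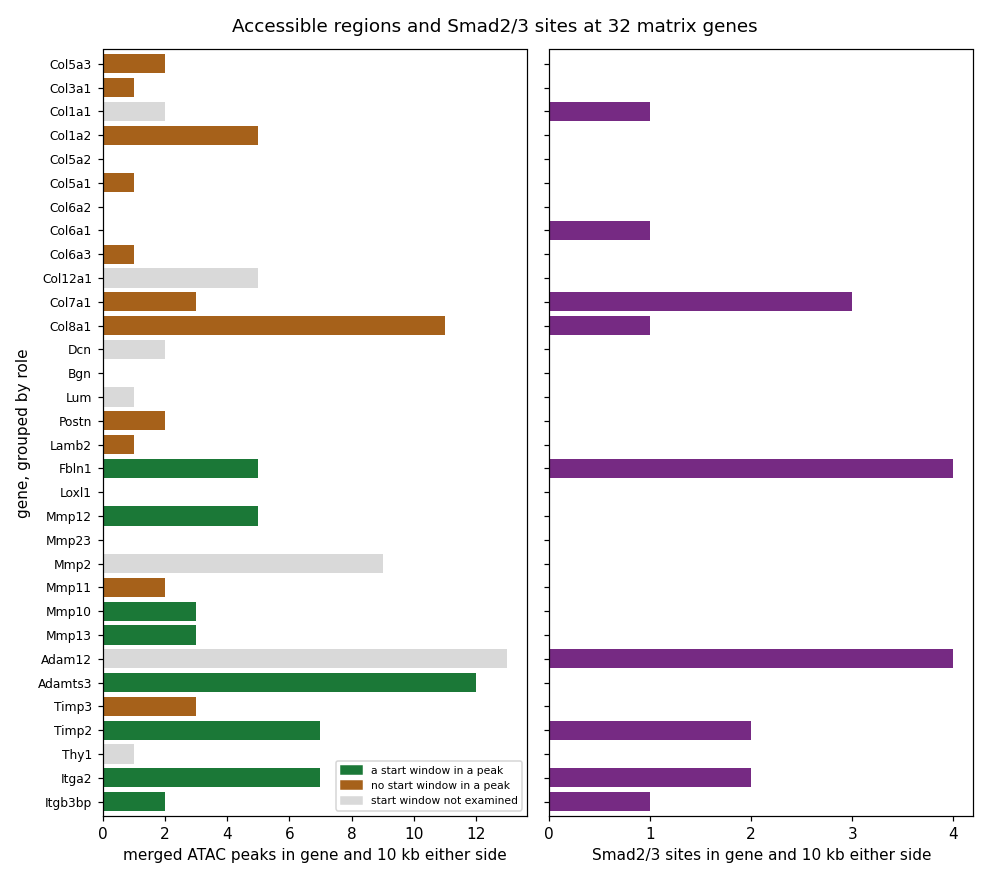
Number of merged ATAC peaks (left) and Smad2/3 sites (right) in each matrix gene and 10 kb either side, genes grouped by role. Bar colour at left tells whether a start window lay in a peak; none of the 9 collagens examined had one, and Fbln1 and Adam12 had the most Smad2/3 sites, 4 each.

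Copy number from input DNA was set against the matrix genes. In SCC1, 11 of 32 matrix genes lay in a region the authors call a gain, or 34.4%, against 45.1% of the table, and 0 of 32 lay in a loss, which allows a share of up to 10.9% (exact 95% binomial interval), against 1.56% of the table. In SCC2, 14 of 32 lay in a gain, or 43.8%, against 44.1% of the table, and 1 in a loss, Mmp2, against 1.5% of the table. The chromosome 9 MMP cluster had 4 copies in SCC1 and 3 for SCC2. Col1a1 had 4 copies in SCC1 and 3 for SCC2, and Col6a1 and Col6a2 had 3 in both. Col1a2, Col3a1 and Col5a2 had no copy number call in either tumour. Dcn, Lum, Mmp23 and Timp3 lay in a gain of 3 copies in SCC2 only, and Col5a3 in one of 3 copies in SCC1 only. Each population ratio is taken within 1 tumour.

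Expressed nonsynonymous changes were listed for 1 member. Itga2 had I1006V (coding change A3016G in exon 25, chr13:114847958, T>C on the reference strand) in proliferative cells of SCC1, at 29% of 21 reads (exact 95% binomial interval 11.3 to 52.2). The change was not listed for quiescent cells of SCC1 or for either population of SCC2, and the number of reads at this position in those libraries was not analysed here. Lamc1, the laminin gamma 1 chain, has no ratio among the 32 but had K1544I (coding change A4631T in exon 28, chr1:153221666) in both tumours. Its share was 56% of 16 reads in quiescent cells of SCC1, 62% of 29 reads in proliferative cells of SCC1 and 54% of 24 reads in proliferative cells of SCC2. The intervals of these shares overlap: 29.9 to 80.2, 42.3 to 79.3 and 32.8 to 74.4. The Lamc1 change was not listed for quiescent cells of SCC2. These had 95 calls over all genes, against 422 in quiescent cells of SCC1. Proliferative cells had 498 calls in SCC1 and 411 in SCC2. The absence of a call in quiescent cells of SCC2 therefore says little.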

How the data were processed

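RNA, ATAC, Smad2/3 ChIP and input libraries of mouse skin tumours were used as the authors deposited them. Expression was deposited by the authors as a log2 ratio of 2 populations of the same tumour, without counts, levels or q-values, so depth is unknown. TopHat2 2.0.9, Cufflinks 2.2.0 and Cuffdiff 2.2.0 with mm10 are named for RNA, per the submitters' processing notes. For double negative libraries these notes list mm9 too. Whether mm9 bears on ratios that use them was not tested. The authors title the table as differentially expressed genes, so its shares are no background for genes at large. Scaling between libraries and the rule by which genes entered the table were not given in the sources used here. No matrix gene stood at 12, the value taken here as the limit of the ratios. It is not a strict limit. Over all genes of SCC1 the lowest double negative over proliferative ratio was -12.51. The highest quiescent over double negative ratio of SCC1 was 13.01. Smad2/3 sites, which the authors title as bound with a motif, and merged ATAC peaks are positions without a score. Bowtie was used for alignment, and Picard 1.88 for ChIP and input, per the submitters' processing notes. Copy number is a whole number per region with a p-value, both by the authors. For mutations the authors deposited a count of reads per site and the percent with the other base as a whole number.

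A gene was called higher or lower when its ratio had the same sign in both tumours, beside the same count over all 1609 genes, and the tumours serve as replicates. Genes were matched to RefSeq GRCm38.p6, the assembly of mm10, for 1600 genes, 1492 by symbol and 108 by synonym. Windows were the gene with 10 kb either side, and an overlap was at least 1 bp. Start windows and sequences are RefSeq's. Intervals take in counting error alone, as reads copied by PCR do not stand for separate molecules, and for mutations they rest on the rounded percent. Work was done in Python 3.11.15 with scipy 1.17.1, pandas 2.3.3, numpy 2.4.6 and matplotlib 3.10.9, and the counting steps were tested on simulated data. Named genes were the 10 marker genes of the set, the 8 members with the highest and the 8 with the lowest mean ratio per comparison, those of opposite sign, those with a Smad2/3 site or mutation, Tfrc and Mki67, and up to 6 genes of each list by mean size in quiescent over proliferative cells. The rest of the members are given as well. The values of 1 listed gene are not reported here. The members and lists were chosen with earlier results of these data known.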

Additional observations from a re-analysis of the deposited data

Results flagged for a closer look

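For 16 genes the quiescent over double negative log2 ratio in the authors' deposited table had opposite signs in SCC1 and SCC2, with a size of 1 or more in each. The difference between tumours was not tested, since each tumour has 1 library per population. As SCC1 minus SCC2 on the log2 scale, in the authors' deposited table, type I collagen differed by -6.53 (Col1a1) and -6.77 (Col1a2). The other fibrillar genes among the 16 differed by -5.96 (Col3a1), -6.12 (Col5a2) and -5.87 (Col5a3), and Col12a1 by -4.32, in the authors' deposited table. Collagen VI genes differed by -5.85 (Col6a1), -6.84 (Col6a2) and -5.83 (Col6a3) in the authors' deposited table. The proteoglycans Bgn and Lum differed by -5.79 and -7.23, and Postn, Loxl1 and Thy1 by -3.33, -5.47 and -6.06, in the authors' deposited table. Among MMP genes, Mmp2 differed by -4.14 and Mmp23 by -5.51 in the authors' deposited table.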

How the results depend on the processing

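No paired analysis was possible because the ratios are already taken within a tumour and no fit was made. With a ratio of 1 or more in both tumours, genes higher in quiescent than in proliferative cells were 5 in place of 20. In double negative over proliferative cells they were 13 in place of 27 higher and 1 in place of 2 lower, and in quiescent over double negative cells 0 in place of 1 higher and 0 in place of 6 lower. In 1 tumour alone, genes higher and lower were 20 to 29 and 3 to 12 for quiescent over proliferative, 28 to 29 and 3 to 4 for double negative over proliferative, and 3 to 24 and 8 to 29 for quiescent over double negative cells. The medians of the ratio were 0.21 to 3.45, 1.30 to 2.22 and -1.76 to 1.24 in the same order. The last median, 0.016 for the mean of both tumours, is reversed in SCC1 alone. Without integrin, Adam and Adamts genes 1 gene was lower in place of 3 in quiescent, and 1 in place of 2 in double negative, over proliferative cells. Without Itgb3bp, chosen after the data were seen, 1 in place of 2 was lower in double negative over proliferative cells. Centring each tumour on the median of all genes, which lay at -0.61 to 0.13 over comparisons and tumours, gave medians of 2.55, 1.94 and 0.067, in place of 2.0, 1.60 and 0.016. Windows of 50 kb gave a Smad2/3 site for 59.4% of matrix genes, against 42.0% of the table, and an ATAC peak for 100%, against 98.5% of the table. The gene body alone gave a peak for 62.5%, against 85.8% of the table. The cause of these changes was not tested, beyond the wider or narrower windows themselves. Without integrin, Adam and Adamts genes the quiescent over double negative median was 0.12 in place of 0.016. Depth limits the mutation shares, which rest on 16 to 29 reads, and cannot be given for the ratios.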
